A study of Homo sapiens with 5 samples.

Results

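The 10 genes described here are regulators and markers of the epithelial-mesenchymal transition (EMT), taken by symbol from a table of 26485 genes: CDH1, CDH2, VIM, FN1, SNAI1, SNAI2, ZEB1, ZEB2, TWIST1 and TWIST2. All 10 had a row in the table, and 9 of them passed the filter on low counts that left 14187 genes to be tested. The RNA-seq experiment compared RPE1 cells (an immortalised human line from retinal pigment epithelium, genotype given as WT) that had been incubated for 18 h with doxorubicin or with its solvent DMSO. There were 2 libraries from DMSO, 2 from 0.2 μM and 1 from 0.34 μM doxorubicin, an anthracycline that intercalates into DNA and poisons topoisomerase II. The doses are those of the sample labels, and the free text on the treatment gives far higher ones. The 3 doxorubicin libraries were joined into 1 group, as in the methods of the study. The methods call the libraries biological replicates, and the lone 0.34 μM library has none at its own dose. The libraries held between 23773061 and 36725345 counts on genes. In bulk RNA a change in the share of cells that express a gene and a change in the level per cell cannot be told apart.

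In EMT, epithelial cells give up their junctions and apical polarity and take on a motile, mesenchymal form. The zinc finger proteins of the SNAI and ZEB families and the basic helix-loop-helix proteins of the TWIST family are transcription factors that drive it, in large part by repressing epithelial genes such as CDH1, which encodes E-cadherin. Cells that have passed through EMT carry N-cadherin (CDH2), the intermediate filament protein vimentin (VIM) and the matrix glycoprotein fibronectin (FN1). Retinal pigment epithelial cells are known to take on mesenchymal features readily in culture.

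SNAI and ZEB proteins bind E-boxes, and the letters searched were CAGGTG and CACCTG, which are each other's reverse complement, so that both strands were covered. RefSeq promoter windows on GRCh38.p14 (250 bases before to 50 after the gene start) were at hand for 6 of the 10 genes, namely ZEB1, ZEB2, TWIST2, CDH2, VIM and FN1. Of these, ZEB1 was the only one that held a match, 1 CAGGTG starting 57 bases upstream of the gene start, and 20.6% of all 27305 windows of this length held at least 1. The windows of ZEB1 (chr10:31318167-31318466, plus strand, the match in capitals) and of its paralogue ZEB2 (chr2:144520070-144520369, minus strand, no match) are shown because these 2 factors share their binding letters and were both lower in each doxorubicin library than in either DMSO library. For ZEB2 the closest doxorubicin and DMSO libraries were nearly equal. TWIST2 and VIM, whose windows held no match, were also lower in each doxorubicin library.
ZEB1: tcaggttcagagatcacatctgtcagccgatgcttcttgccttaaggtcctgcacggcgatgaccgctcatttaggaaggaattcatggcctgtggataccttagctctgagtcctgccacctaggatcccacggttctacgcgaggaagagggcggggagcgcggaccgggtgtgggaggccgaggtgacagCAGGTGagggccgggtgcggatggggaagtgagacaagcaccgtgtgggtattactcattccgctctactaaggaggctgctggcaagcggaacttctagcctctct
ZEB2: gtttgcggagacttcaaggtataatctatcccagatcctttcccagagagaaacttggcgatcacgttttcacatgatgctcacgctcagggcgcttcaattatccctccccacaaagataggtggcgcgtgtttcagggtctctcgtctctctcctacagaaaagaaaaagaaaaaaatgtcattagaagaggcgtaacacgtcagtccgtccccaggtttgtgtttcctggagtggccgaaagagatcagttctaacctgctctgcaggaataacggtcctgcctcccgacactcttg
A match is a description of these letters and not of a bound site.

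The first comparison asked which of these genes differed between doxorubicin and DMSO. None of the 9 genes tested passed an adjusted p of 0.01 in edgeR's quasi-likelihood test, where 4.02% of all genes tested did. DESeq2, which called 14.1% of its genes on the same groups, and limma voom, which called 3.71%, also called 0 of the 9. At an unadjusted p under 0.05, 5 of the 9 were reached in edgeR (SNAI2, ZEB1, ZEB2, TWIST1 and TWIST2), beside 30.8% of all genes tested. The doxorubicin libraries lay below both DMSO libraries for 5 of the 9 genes (ZEB1, ZEB2, TWIST1, TWIST2 and VIM), against 23.4% of all genes tested, and above both for 1 (SNAI2), against 24.3%. The same treatment gave a large response in the cells, as CDKN1A, the cell cycle inhibitor induced by p53, rose from 276 ± 26.1 CPM (gene counts scaled to a common library size with TMM normalization; SD, n = 2) to 2900 ± 500.4 CPM (SD, n = 3). All 5 p53 target genes used as controls were called higher, and all 5 were also called by DESeq2 and by limma voom.

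**Figure D1:**
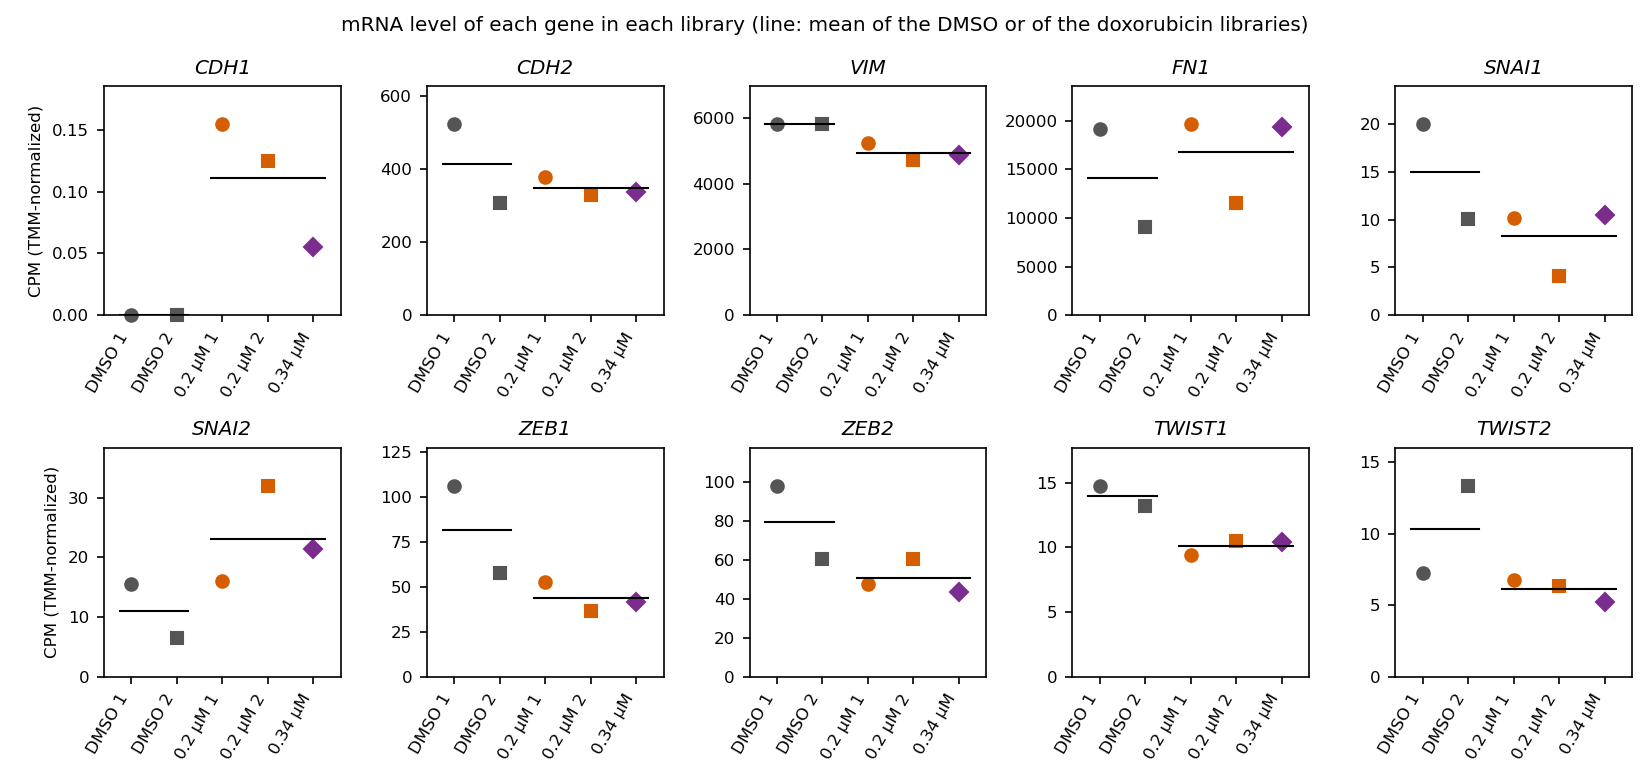
Each panel plots the TMM-normalized level of 1 gene in CPM (axis from 0) in the 5 libraries, with grey points for DMSO, orange for 0.2 μM and purple for 0.34 μM doxorubicin, circles for replicate 1, squares for replicate 2, diamonds for the 0.34 μM library and lines for the means of the 2 DMSO and the 3 doxorubicin libraries. SNAI2 is higher and ZEB1, ZEB2, TWIST1, TWIST2 and VIM are lower in all 3 doxorubicin libraries, while FN1, SNAI1 and CDH2 overlap between the groups and CDH1, with at most 4 counts, was not tested.

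SNAI2, which encodes the repressor Slug, was the only transcription factor of the 6 with a higher mean after doxorubicin. Its counts were 409 and 166 in DMSO, 415 and 770 at 0.2 μM and 778 at 0.34 μM, which corresponds to 15.6 and 6.50 CPM in DMSO and to 16.0, 32.0 and 21.4 CPM in doxorubicin. The lowest doxorubicin library was thus barely above the higher DMSO library. The log2 fold change (log2FC) was 1.07 (standard error, SE, 0.44, 95% interval 0.018 to 2.11) with an adjusted p of 0.156 in edgeR, and dropping DMSO replicate 1 gave 1.82 where dropping DMSO replicate 2 gave 0.55. Its 2 libraries at 0.2 μM lay 2-fold apart, replicate 1 having 0.501 times the CPM of replicate 2, and its 2 DMSO libraries differed in the other direction, with replicate 1 at 2.40 times replicate 2.

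SNAI1, which encodes the founding repressor of the family, Snail, lay on the opposite side of DMSO by its mean. It had 524 and 257 counts in DMSO, 264 and 98 at 0.2 μM and 381 at 0.34 μM, or 20 and 10.1 CPM against 10.2, 4.07 and 10.5 CPM. The groups overlapped, since 2 of the doxorubicin libraries were slightly above DMSO replicate 2. Its log2FC was -0.86 (SE 0.46, 95% interval -1.96 to 0.24, adjusted p = 0.261 in edgeR). This interval is from a fit that took no account of replicate number. It runs from about a 4-fold lower level, a fold of 0.257, to a fold of 1.18. The estimate was -0.28 without DMSO replicate 1, -1.28 without DMSO replicate 2 and -0.53 without replicate 2 of 0.2 μM. Replicate 1 was higher than replicate 2 in both conditions, 1.99-fold in DMSO and 2.51-fold at 0.2 μM. With replicate number as a block in the DMSO and 0.2 μM libraries, the log2FC of SNAI1 was -1.12 (adjusted p = 0.0115 in edgeR).

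ZEB1 and ZEB2 encode large repressors with zinc finger clusters at both ends, and both are classical targets of the miR-200 family. ZEB1 counts were 2784 and 1466 for DMSO and 1367, 885 and 1515 for doxorubicin, the last in the 0.34 μM library. On the CPM scale it went from 106 and 57.4 in DMSO to 52.9, 36.8 and 41.7 in doxorubicin. Each doxorubicin library was below both DMSO libraries, and DMSO replicate 1 was far above the other 4. The log2FC was -0.90 (SE 0.28, 95% interval -1.58 to -0.22), and the adjusted p of 0.0821 was the lowest of the 9 genes in edgeR's quasi-likelihood test. Without DMSO replicate 1 the value was -0.40, and without the other libraries it lay between -1.29 and -0.79. With DESeq2 on the same groups the log2FC was -0.91 with an adjusted p of 0.0207.

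For ZEB2 the levels were 98.2 and 60.7 CPM in DMSO and 47.6, 60.7 and 43.4 CPM in doxorubicin, from 2575, 1549, 1230, 1459 and 1574 counts. Replicate 2 of 0.2 μM and replicate 2 of DMSO were nearly equal, at 60.66 and 60.67 CPM, so the separation of the groups for ZEB2 hung on a difference far below counting error. ZEB2 gave a log2FC of -0.65 (SE 0.25, 95% interval -1.24 to -0.065, adjusted p = 0.128 in edgeR), which became -0.27 without DMSO replicate 1 and -0.98 without DMSO replicate 2.

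TWIST1 and TWIST2 encode closely related basic helix-loop-helix factors of mesoderm development. TWIST1 had the tightest libraries of the 6 factors, with 14.8 and 13.2 CPM in DMSO and 9.40, 10.5 and 10.4 CPM in doxorubicin, from 387, 337, 243, 252 and 379 counts. Its log2FC was -0.47 (SE 0.18, 95% interval -0.91 to -0.028, adjusted p = 0.142 in edgeR), and it stayed between -0.56 and -0.39 when single libraries were dropped. TWIST2 counts were 191 and 341 for DMSO and 175, 152 and 190 for doxorubicin, or 7.29 and 13.4 CPM against 6.77, 6.32 and 5.24 CPM. Unlike SNAI1, SNAI2, ZEB1 and ZEB2, TWIST2 was lower in replicate 1 than in replicate 2 of DMSO, at 0.546 times its level. TWIST2 had a log2FC of -0.76 (SE 0.30, 95% interval -1.48 to -0.032, adjusted p = 0.148 in edgeR), which became -1.14 without DMSO replicate 1 and -0.27 without DMSO replicate 2. Over the 6 factors the median log2FC was -0.71, against 0.013 over all genes tested. This median was -0.34 without DMSO replicate 1 and between -0.77 and -0.60 without any other library.

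**Figure D2:**
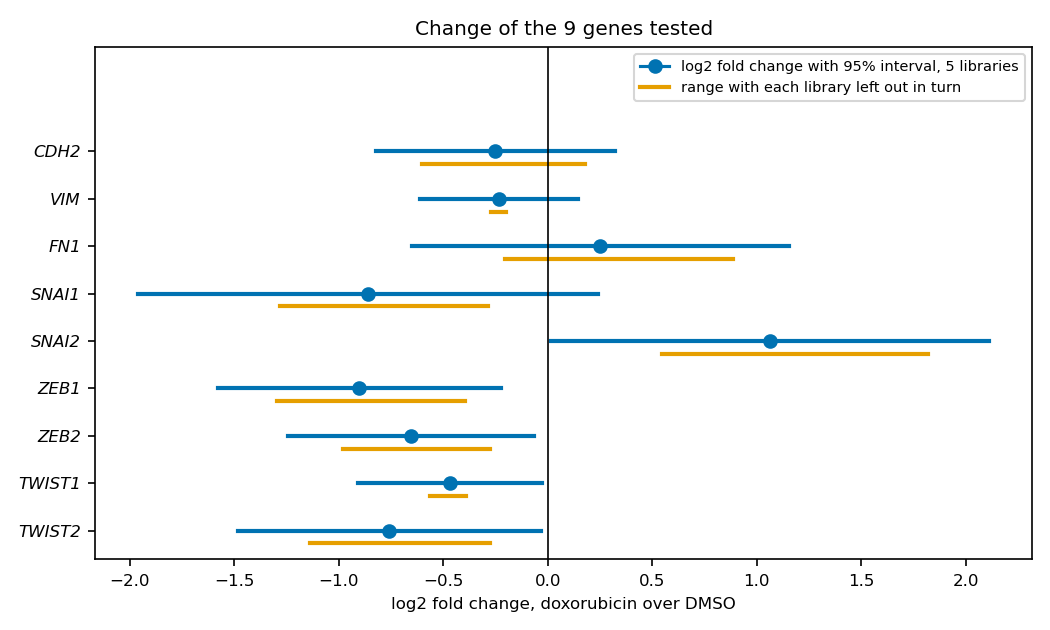
The plot gives the log2FC of doxorubicin over DMSO (horizontal axis) for the 9 genes tested, with a blue point and line for the estimate and its 95% interval in edgeR and an orange line for the range of estimates when each of the 5 libraries is left out in turn. The orange line crosses 0 for CDH2 (-0.60 to 0.18) and FN1 (-0.20 to 0.89) and for no other gene.

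CDH1, the epithelial marker, was at the limit of detection. It had 0 counts in both DMSO libraries and 4, 3 and 2 counts in the 0.2 μM and 0.34 μM libraries, and it was not tested. A count of 0 allows a level of up to 0.114 and 0.118 CPM in the DMSO libraries (3 counts, counting error only), and the doxorubicin libraries lay at 0.155, 0.125 and 0.0551 CPM. The 0.2 μM libraries were thus slightly above these limits and the 0.34 μM library below them. With at most 4 counts CDH1 did not pass the filter and was too low for a difference to be assessed, and no fold change is given.

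CDH2, which encodes N-cadherin, was abundant and showed no difference beyond the spread of its libraries. It had 523 and 306 CPM in DMSO and 378, 329 and 337 CPM in doxorubicin, from 13699, 7808, 9787, 7918 and 12222 counts. All 3 doxorubicin libraries fell between the DMSO libraries. The log2FC was -0.25 (SE 0.24, 95% interval -0.82 to 0.32, adjusted p = 0.530 in edgeR), and it became 0.18 without DMSO replicate 1.

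VIM was the most even of the 9 genes between the DMSO libraries. Its level was 5796 and 5805 CPM in DMSO and 5227, 4711 and 4858 CPM in doxorubicin, so that all doxorubicin libraries were lower. The log2FC was small, -0.23 (SE 0.16, 95% interval -0.61 to 0.15), with an adjusted p of 0.369 in edgeR, and ranged from -0.27 to -0.20 when single libraries were left out. VIM mRNA alone took between 0.477% and 0.606% of all counts in a library.

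FN1 was still more abundant and far more variable. Its counts were 503121 and 231823 in DMSO, 508407 and 276844 at 0.2 μM and 701325 at 0.34 μM, which is between 0.947% and 1.92% of a library. In CPM these were 19193 and 9080 in DMSO and 19659, 11510 and 19325 in doxorubicin. The libraries fell into a high set (replicate 1 of DMSO, replicate 1 of 0.2 μM and the 0.34 μM library) and a low set (replicate 2 of DMSO and of 0.2 μM), whatever the treatment. The log2FC of 0.25 (SE 0.38, 95% interval -0.65 to 1.15, adjusted p = 0.700 in edgeR) turned to -0.20 without DMSO replicate 2.

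**Figure D3:**
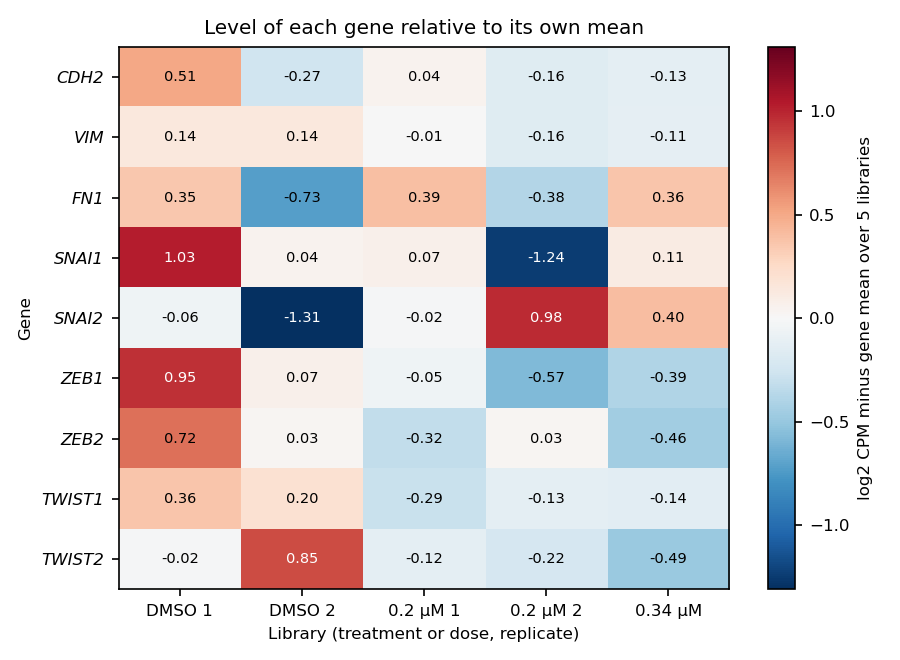
The map shows log2 CPM (prior count 2) of the 9 genes tested minus each gene's mean over the 5 libraries, with libraries in columns and the values printed in the cells. FN1 is high in DMSO 1, 0.2 μM 1 and 0.34 μM (0.35, 0.39 and 0.36) and low in DMSO 2 and 0.2 μM 2 (-0.73 and -0.38), whereas SNAI2 is lowest in DMSO 2 (-1.31) and highest in 0.2 μM 2 (0.98).

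Levels of different genes were compared as CPM per kb of the GENCODE canonical transcript. In DMSO the order was VIM (2693 ± 2.89, SD, n = 2), FN1 (1685 ± 852), CDH2 (103 ± 38.2), ZEB1 (13.8 ± 5.81), TWIST2 (11.5 ± 4.76), SNAI1 (8.81 ± 4.12), TWIST1 (8.58 ± 0.678), ZEB2 (8.58 ± 2.87) and SNAI2 (5.07 ± 2.95), with CDH1 at 0. The step from the 3 mesenchymal markers to the 6 factors was far larger than the spread of the libraries. Within the 6 factors the neighbours in this order did not differ beyond their SDs. After doxorubicin SNAI2 had the highest mean per kb of the 6 factors (10.6 ± 3.73, SD, n = 3), followed by ZEB1 (7.38 ± 1.39), TWIST2 (6.78 ± 0.874), TWIST1 (6.20 ± 0.377), ZEB2 (5.45 ± 0.973) and SNAI1 (4.84 ± 2.13). Here too the neighbours lay within their SDs. VIM and FN1, separate in DMSO, lay within their SDs of each other after doxorubicin, at 2290 ± 124 and 2006 ± 549.6 CPM per kb.

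The second comparison set 0.34 μM against 0.2 μM doxorubicin. None of the 9 genes was called, and neither was any other gene (0% of the 14187 tested in edgeR, with 22 at an unadjusted p under 0.05). DESeq2 and limma voom also called 0 of the members. The log2 difference of 0.34 μM minus 0.2 μM was largest for SNAI1, at 0.55 (95% interval -0.91 to 2.02), and lay at -0.32 for ZEB2 (-1.17 to 0.53) and -0.32 for TWIST2 (-1.46 to 0.81). For SNAI2 it was -0.16 (-1.58 to 1.25) and for VIM -0.033 (-0.76 to 0.70). These intervals are wide, with 1 library at 0.34 μM, and they do not show that the doses acted alike.

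The genes whose pattern over the 5 libraries was nearest to that of ZEB1, by Euclidean distance of mean-centred log2 CPM, were PFN1 (distance 0.143), NFIX (0.181) and CDKN2A (0.187). For ZEB2 they were ASAP1 (0.0871), FAM133B (0.157) and SLC10A7 (0.158). ZEB1 and ZEB2 were used because they had the smallest p among the 9 genes. None of these 6 neighbours passed the threshold, which is no separate result, since they were chosen for likeness to genes that did not pass.

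Other genes of the pathway were taken from lists compiled from general knowledge. Of 195 such genes 139 were tested, and 6 were called, 3 higher and 3 lower, where 4.02% of all genes tested were called. DESeq2 called 25 of the 142 it tested, 13 higher and 12 lower, beside 14.1% of all its genes, and limma voom called 6. These shares of all genes also stand beside the counts of each list below. So do 3.71% for limma voom and 30.8% for an unadjusted p under 0.05 in edgeR. The 6 called by edgeR depended on single libraries, with 3 genes of the lists called without DMSO replicate 1, 0 without DMSO replicate 2, 3 or 2 without replicate 1 or 2 of 0.2 μM, and 1 without the 0.34 μM library.

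**Figure D4:**
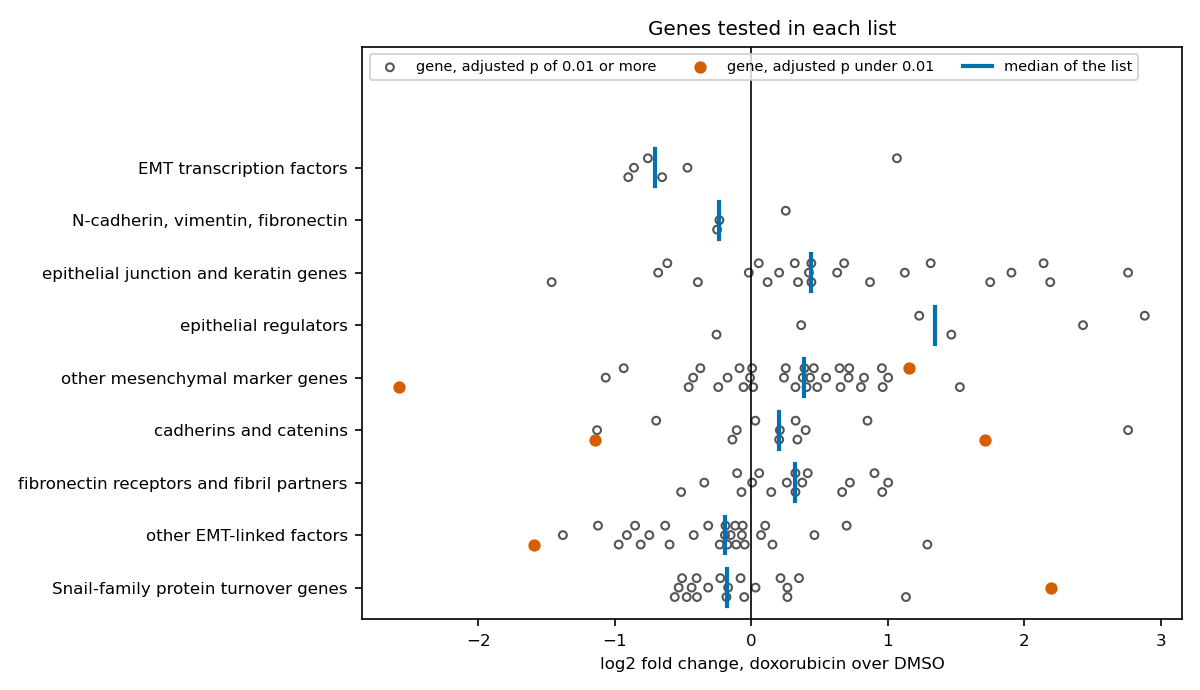
Each row is a list of genes and each point the log2FC of doxorubicin over DMSO (horizontal axis) of 1 gene tested, filled orange where the adjusted p in edgeR was under 0.01, with a blue bar at the median of the list. The 6 EMT factors have a median of -0.71 and the epithelial junction and keratin genes one of 0.44, and the filled points include NES, CDH10, CTNNAL1, PRRX1 and MDM2.

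Among 35 other transcription factors and partners linked to EMT, 28 were tested and 22 had a lower mean after doxorubicin, with a median log2FC of -0.19. PRRX1, a homeobox factor of limb and craniofacial mesenchyme, was the only one called by edgeR. It fell from 96.3 and 84.6 CPM in DMSO to 31.7, 28.5 and 30.0 CPM in doxorubicin, and the log2FC was -1.59 (SE 0.14, adjusted p = 0.00163 in edgeR). The call was kept in 3 of the 5 fits that left out a library and lost without DMSO replicate 2 and without the 0.34 μM library, with an adjusted p of up to 0.0119 in edgeR and a log2FC between -1.70 and -1.50. DESeq2 called 1 higher and 6 lower genes of this list. TCF3 and TCF12, which encode the E-proteins that pair with TWIST factors, had log2FC values of -0.91 and -0.63 and did not pass in edgeR, nor did FOXC2, a forkhead factor, with -0.85. In the other direction, SOX4 had a log2FC of 0.70 and the Snail-family gene SNAI3 one of 1.29, and neither passed in edgeR. At an unadjusted p under 0.05 in edgeR, 2 genes of this list were higher and 8 lower, beside 30.8% of all genes tested. TCF3, TCF12, FOXC2, SOX4 and SNAI3 were named after their values were seen.

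In the list of 20 genes for the turnover and corepressors of Snail-family proteins, MDM2 was the only gene called by edgeR, and DESeq2 called 2 higher and 1 lower. MDM2, the ubiquitin ligase that is itself a p53 target, rose from 128 and 123 CPM in DMSO to 482, 715 and 517 CPM, a log2FC of 2.19 (SE 0.23, adjusted p = 0.00246 in edgeR). The call was lost without DMSO replicate 1 and without DMSO replicate 2, with an adjusted p of up to 0.0227 in edgeR, while the log2FC lay between 2.00 and 2.30 in all 5 fits.

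Among 37 junction and keratin genes of epithelia 23 were tested, and 18 of them had a higher mean after doxorubicin, with a median log2FC of 0.44. None was called by edgeR or limma voom. An unadjusted p under 0.05 in edgeR was reached by 10 (8 higher and 2 lower), beside 30.8% of all genes tested. DESeq2 called 4, all higher, beside 14.1% of all its genes. The 2 with the smallest p were KRT8, a simple epithelial keratin, and CLDN1, a tight junction claudin. KRT8 was at 369 and 346 CPM in DMSO and at 661, 636 and 661 CPM in doxorubicin (log2FC 0.87, adjusted p = 0.0133 in edgeR). CLDN1 was at 3.93 and 1.68 CPM in DMSO and at 9.82, 13.5 and 15.2 CPM in doxorubicin (log2FC 2.19, adjusted p = 0.0189 in edgeR). Of the genes that define an epithelium most narrowly, EPCAM had at most 1 count in any library and CLDN3 had 0 in all. SPINT1, on 7 and 1 counts in DMSO against 18, 3 and 33, passed the filter through doxorubicin libraries alone. Such passing favours a higher mean among the genes tested.

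Of the 16 epithelial regulators 6 passed the filter and were tested, with 0 called by edgeR or limma voom. In edgeR 3 had an unadjusted p under 0.05, beside 30.8% of all genes tested. DESeq2 called 1, beside 14.1% of all its genes. KLF4 had a log2FC of 1.23 (adjusted p = 0.0501 in edgeR) and EHF, on 2 and 3 counts in DMSO against 4, 20 and 23 with doxorubicin, one of 2.43 (adjusted p = 0.117 in edgeR). EHF, GRHL3 and TP63 passed the filter through doxorubicin libraries alone, which favours a higher mean among the genes tested. ESRP2 (16 and 6 counts in DMSO against 6, 1 and 7) and GRHL1 (11 and 7 against 3, 0 and 5) did not pass it. OVOL1 and OVOL2, repressors that oppose the ZEB factors, had 0 counts in all libraries. GRHL2, an activator of CDH1, had 0, 0, 1, 0 and 4 counts.

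Of 38 other mesenchymal marker genes 34 were tested, 23 with a higher and 11 with a lower mean, and the median log2FC was 0.38. COL1A2 (7 and 6 counts in DMSO) and COL3A1 (9 and 2) passed the filter through doxorubicin libraries alone, which favours a higher mean. In edgeR 1 gene of this list was called higher and 1 lower. NES, the intermediate filament gene for nestin, fell from 7.06 and 7.83 CPM in DMSO to 1.90, 0.915 and 0.937 CPM (log2FC -2.58, SE 0.38, adjusted p = 0.00882 in edgeR). The call of NES was lost in 4 of the 5 fits that left out a library and kept without replicate 1 of 0.2 μM, with an adjusted p of up to 0.0428 in edgeR and a log2FC between -3.00 and -2.39. DESeq2 called 2 higher and 3 lower genes of this list.

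Several genes of this mesenchymal list, named after their values were seen, fell into the same sets of libraries as FN1 did. ACTA2, smooth muscle actin, had 287, 382 and 333 CPM in the 3 libraries of the high set and 38.7 and 152 CPM in replicate 2 of DMSO and of 0.2 μM. BGN, the proteoglycan biglycan, had 93.3, 67.4 and 64.6 CPM against 3.68 and 4.82 CPM. POSTN, periostin, had 347, 376 and 553 counts against 1 and 32. The part of this division in the values of the EMT genes was not tested.

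Of 22 other cadherins and catenins 14 were tested. CDH10, a type II cadherin, rose from 14.1 and 11.9 CPM in DMSO to 37.4, 51.8 and 38.4 CPM (log2FC 1.71, SE 0.22, adjusted p = 0.00523 in edgeR). CTNNAL1, the alpha-catenin relative alpha-catulin, fell from 114 and 126 CPM to 52.1, 58.0 and 52.2 CPM (log2FC -1.15, SE 0.14, adjusted p = 0.00422 in edgeR). Both calls were lost in all 5 fits that left out a library, with an adjusted p of up to 0.0308 for CDH10 and 0.0332 for CTNNAL1 in edgeR, while the log2FC lay between 1.54 and 1.82 for CDH10 and between -1.23 and -1.09 for CTNNAL1. DESeq2 called 1 higher and 2 lower, and CTNNB1, beta-catenin, was among those not called by edgeR (log2FC 0.34).

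In the list of 20 fibronectin receptors and fibril partners 17 were tested, and 0 were called by edgeR or limma voom. In edgeR 4 had an unadjusted p under 0.05, beside 30.8% of all genes tested. DESeq2 called 3, all higher, beside 14.1% of all its genes. THBS1, thrombospondin 1, had a log2FC of 1.00 (adjusted p = 0.0155 in edgeR), and BMP1, the procollagen C-proteinase, one of 0.96 (adjusted p = 0.0196 in edgeR). ITGA5 and ITGB1, the subunits of the main fibronectin receptor, had log2FC values of -0.072 and -0.10, with ITGA5 at 839.8 and 488.5 CPM in replicate 2 of DMSO and of 0.2 μM and at 1221 CPM or more in the others.

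Of the microRNA genes and hosts of the miR-200, miR-34 and miR-205 families 10 of 12 had a row, and none passed the filter. The 7 rows of the miR-200 and miR-205 families had 0 counts in all libraries, and MIR34A, a p53 target whose product acts on SNAI1, had 4 and 2 counts in DMSO against 5, 11 and 8 with doxorubicin. Poly-A libraries do not measure mature microRNAs. Of 8 antisense and divergent partners 3 had a row and 2 were tested. ZEB1-AS1 (log2FC -0.35) and VIM-AS1 (-0.82) were not called by edgeR, DESeq2 or limma voom, and neither had an unadjusted p under 0.05. On GRCh38.p14 RefSeq places ZEB1 at chr10:31318417-31529804, ZEB2 at chr2:144384081-144520119, VIM at chr10:17228241-17237593, FN1 at chr2:215360865-215436068 and CDH2 at chr18:27932879-28177130. SNAI1 lies at chr20:49982980-49988886, SNAI2 at chr8:48917598-48921429, TWIST1 at chr7:19113047-19117636, TWIST2 at chr2:238848085-238910534 and CDH1 at chr16:68737292-68835537. By these positions ZEB1, ZEB2, VIM, CDH2 and FN1 overlap antisense or divergent genes. ZEB1 also overlaps LOC100505502 and SPTLC1P1, and FN1 also overlaps ATIC. TWIST1 overlaps LOC124901597, and CDH1 overlaps FTLP14 and RNA5SP429. Although the kit was stranded, the strand setting of the counting was not stated. Reads of these overlapping genes may therefore be included in the counts of the EMT genes. SNAI1, SNAI2 and TWIST2 overlap no other RefSeq gene.

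The cell type given in the labels was checked against its markers. Of 16 markers of retinal pigment epithelium, KRT8, KRT18, MITF and OTX2 were well expressed (601 counts or more), whereas RPE65 had between 3 and 8 counts, and RLBP1, TYR, DCT, TTR and CRX had at most 5 in any library. None of the 8 tested was called by edgeR or limma voom. In edgeR 4 had an unadjusted p under 0.05, beside 30.8% of all genes tested. DESeq2 called 2, both higher, beside 14.1% of all its genes. The summed level of the 16 markers was between 645 and 785 CPM in DMSO and between 1056 and 1252 CPM in doxorubicin. Most of that sum was KRT8 and KRT18, keratins of simple epithelia in general, with means of 357 and 282 CPM in DMSO and 653 and 436 CPM in doxorubicin. Of the 8 tested, 5 had a higher and 3 a lower mean, with OTX2 at a log2FC of -0.021, MITF at 0.050, MERTK at -0.043 and SERPINF1 at -1.04. BEST1, on 26 and 14 counts in DMSO against 86, 30 and 142 with doxorubicin, had a log2FC of 1.88 (adjusted p = 0.0823 in edgeR). PMEL, on 5 to 46 counts, had a log2FC of 2.29 (adjusted p = 0.0264 in edgeR). Of 9 fibroblast markers 8 were tested, with 0 called by edgeR or limma voom, 1 at an unadjusted p under 0.05 and 1 called lower by DESeq2. Their summed level was between 631 and 1045 CPM in DMSO and between 597 and 912 CPM in doxorubicin, with PDGFRA at a log2FC of -1.07 and COL3A1 at 1.53. COL3A1, on 9 and 2 counts in DMSO against 18, 6 and 32, passed the filter through doxorubicin libraries alone. Of 8 blood and endothelial markers 3 were tested and none was called by edgeR or limma voom, while 1 had an unadjusted p under 0.05 and was called by DESeq2. Their summed level was between 0.572 and 2.94 CPM in DMSO and between 2.09 and 5.74 CPM in doxorubicin, with CD3E and HBB at 0 counts. The log2FC was 2.86 for PTPRC, 1.32 for VWF and -0.14 for CDH5. CDH5 had 2 and 56 counts in DMSO, 4 and 69 at 0.2 μM and 5 at 0.34 μM. The part of these marker levels in the values of the EMT genes was not tested.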

How the data were processed

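Poly-A RNA of RPE1 cells was sequenced by the authors in paired-end mode, mapped to hg38 with STAR and counted per gene with Rsubread and the iGenomes annotation. The table the authors deposited holds whole-number counts for each gene, not normalized. Tool versions, strand setting and handling of multi-mapping reads were not stated. A second deposited table holds their own DESeq2 comparison (mean normalized count, log2 fold change, Wald statistic and p-values), which was not used.

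These counts were tested with edgeR 4.0.16 under R 4.3.3 (quasi-likelihood test, TMM, minimum count 10, minimum total 15), with DESeq2 1.42.0 and limma 3.58.1 as alternatives. Adjusted p-values (Benjamini-Hochberg) are over all genes tested, and the threshold of 0.01 is that of the study. Standard errors were derived from the fold change and its F statistic, and 95% intervals use the degrees of freedom of the test. CPM values are TMM-normalized. The dose contrast came from a fit of 3 conditions to all libraries. The libraries of a condition differed by a chi-square of 117 (DMSO) and 75.3 (0.2 μM) per degree of freedom and were counted as separate. Scripts were tested on simulated data.

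The genes and lists were chosen with earlier results of these data known. All 10 genes were named. In each list the genes past the threshold were named, up to 4 in each direction by fold change, or where none passed the 2 with the smallest p. Any other gene was named after its values were seen. For 1 gene that this rule names, the values are not reported here. The genome supplied was of another build, so positions and promoters are from RefSeq tables, and transcript lengths from GENCODE v44. Neighbours in pattern were the 3 nearest genes to each member past the threshold, or where none passed to the 2 with the smallest p. Alternatives were the tool, the scaling, the filter, the threshold, the doses joined, thinned counts, each library left out, and a replicate block.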

Additional observations from a re-analysis of the deposited data

How the results depend on the processing

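The count of 0 EMT genes called was the same under DESeq2, limma voom, DESeq2 size factors, no filter, a threshold of 0.05, each dose alone, thinned counts, each library left out in turn and a replicate block. Of 117 log2 fold changes of the 9 genes under 13 alternatives, 115 kept their direction and 2 turned, CDH2 to 0.18 without DMSO replicate 1 and FN1 to -0.20 without DMSO replicate 2, with ranges over the left-out libraries of -0.60 to 0.18 and -0.20 to 0.89. The lowest adjusted p was 0.0115 (SNAI1, edgeR with the replicate block). The threshold of 0.05 was applied to the main fit alone. Adjusted p-values between 0.01 and 0.05 in the alternatives included 0.0188 for ZEB1 and 0.0467 for SNAI2 in edgeR with the block. DESeq2 gave 0.0207 for ZEB1. The dose contrast called 0 of the genes under each alternative run. A fit without the 0.34 μM library cannot give that contrast.

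Counts over all genes were less stable than the 571 of the main setting. They were 2026 with DESeq2, 1020 with no filter, 1927 at a threshold of 0.05, 171 for 0.2 μM and 89 for 0.34 μM against DMSO, and between 49 and 215 with each library left out. Against the 6 genes of the other lists called in the main setting, the lists had 25 called with DESeq2, 14 with no filter and 22 at a threshold of 0.05. They had 1 called for 0.2 μM against DMSO, and between 1 and 3 with a doxorubicin library left out. These counts can include other list genes than the 6. The cause of these differences was not tested. DESeq2 and the fit with no filter had a median log2 fold change over all genes of 0.14 and 0.15, against 0.013 in the main setting. The labels give a number only to the second replicates, and across genes the difference of replicate 1 from replicate 2 correlated between DMSO and 0.2 μM with a Pearson's r of 0.528. With the number as a replicate block in these 4 libraries, 1249 genes and 20 list genes were called, against 178 and 1 without the block. At this depth CDH1, with at most 4 counts, could not be tested.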
